A study of Mus musculus with 3 samples.

Results

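The NF-κB genes of macrophages were examined as the 5 transcription factor subunits (*Rela*, *Relb*, *Rel*, *Nfkb1* and *Nfkb2*), the 3 cytoplasmic inhibitors (*Nfkbia*, *Nfkbib* and *Nfkbie*) and the 2 inhibitor-like proteins of the nucleus (*Nfkbiz* and *Bcl3*). These 10 genes were found by their symbols among the 26840 genes of the microarray that have one, and they are represented by 21 of its 56605 gene probes, each of 60 bases. The rule that found their probes used only the names and no measured value, but the 10 genes were chosen with earlier results of these data known.

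NF-κB is a family of dimeric transcription factors that the inhibitors of the IκB type hold in the cytoplasm. When LPS, a wall component of Gram-negative bacteria, binds to TLR4, the IKK kinase complex marks the inhibitors for degradation, and the freed dimers enter the nucleus and switch on cytokine, chemokine and survival genes. Several subunits and inhibitors are themselves targets of NF-κB, so that the pathway rebuilds its own brake, and in macrophages this system controls much of the inflammatory response.

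RNA came from RAW 264.7 cells, a mouse macrophage line, and was hybridised in 1 colour. The study asked how lactobacilli given beforehand alter the response of macrophages to TLR4 activation. The LPS group received LPS at 50 ng/mL without bacteria, the CRL1505 + LPS group was first exposed for 24 h to *L. rhamnosus* CRL1505 at 50000000 cells/mL, and the CRL1506 + LPS group to *L. plantarum* CRL1506 at the same density, after which the bacteria were washed off and the same dose of LPS was given. All 3 groups thus carry the LPS treatment, for 12 h by the design text of the series and for 3 h by the sample descriptions. Arrays of cells without LPS were not analysed here, and the model is 1 immortalised line. With 1 array per group there is no replicate check, no test and no p-value, and every difference below compares arrays rather than treatments.

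The level of a gene is given as the log2 signal of its brightest probe above the 75th percentile of all gene spots of the same array, and a log2 ratio as the difference of this level between arrays. In the absence of replicates, a log2 ratio was read against the spread between probes, that is, the SD over the different probes of a gene, taken as the median over genes, which was 0.23 for CRL1505 + LPS against LPS, 0.21 for CRL1506 + LPS against LPS and 0.32 for CRL1505 + LPS against CRL1506 + LPS. The corresponding SD over repeated spots of a probe was 0.048, 0.043 and 0.047, and it holds only the measurement error inside single hybridisations. The spread between probes comes from the same arrays and likewise holds no variation between cultures, hybridisations or slides. A ratio past this spread is therefore not shown to exceed the variation between arrays. Between 48.5% and 55.3% of the 59305 gene spots were well above background. A common slide and scan run held the LPS array and that of CRL1506 + LPS, whereas CRL1505 + LPS had a slide and scan of its own, so that for this strain treatment and slide cannot be told apart. All 10 macrophage markers examined were well above background on every array, but they did not all keep their level. Compared with LPS, *Adgre1* was 4.83-fold higher with CRL1505 and just past 2-fold higher with CRL1506, *Fcgr1* was 5.28-fold and 1.93-fold higher, and *Csf1r* was 2.77-fold and 1.83-fold lower. Of these 10 markers, 2 passed 2-fold upwards and 1 downwards with CRL1505, and 1 passed it upwards with CRL1506. Among all genes compared, 9.93% passed it upwards and 8.41% downwards with CRL1505, and 5.67% upwards with CRL1506. The log2 ratio of *Adgre1* with CRL1506 ran from 0.80 to 1.11 under other normalizations, so its call was not kept throughout. The median log2 ratio of the 10 markers was 0.07 with CRL1505 and -0.22 with CRL1506. Every array also showed 3 of the 4 T cell markers and 1 of the 3 B cell markers well above background, and 1 or 2 arrays showed *Col1a1* and *Col1a2*, of the 3 fibroblast markers, and *Ncr1* and *Klrb1c*, the 2 natural killer cell markers. None of the 3 epithelial markers was well above background on an array. The part of these markers in the results was not tested. In RNA from a whole culture, fewer cells expressing a gene and less RNA per cell cannot be told apart.

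The promoters are shown first because several genes of this family are known to be switched on by NF-κB themselves. RefSeq promoters (GRCm38.p6), which reach from 250 bases before to 50 bases after a gene's start, were at hand for 7 of the 10 genes and were searched on both strands for the NF-κB consensus of 10 bases, with overlapping matches counted once. A match was found in 5 of these 7 genes, namely *Rel*, *Nfkb2*, *Nfkbia*, *Nfkbie* and *Bcl3*, compared with 1388 of all 27025 genes searched (5.14%), or 4.51% of all promoters. In the following windows the match is in capitals and the strand is that of the gene, and of the 3 promoters listed for *Nfkb2*, each with a match, the first is shown.
Rel, chr11:23771037-23771076: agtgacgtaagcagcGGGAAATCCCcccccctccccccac
Nfkb2, chr19:46304683-46304722: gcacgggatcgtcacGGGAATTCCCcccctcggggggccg
Nfkb2, chr19:46304711-46304750: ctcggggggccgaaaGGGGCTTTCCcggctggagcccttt
Nfkbia, chr12:55492652-55492691: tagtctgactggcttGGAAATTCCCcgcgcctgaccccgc
Nfkbie, chr17:45555579-45555618: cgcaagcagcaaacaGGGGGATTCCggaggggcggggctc
Bcl3, chr7:19822729-19822768: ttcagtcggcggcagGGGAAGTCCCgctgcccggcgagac
The first base of the match lay 92 bases before the start of *Rel*, 39 and 11 bases before that of *Nfkb2*, 29 bases before that of *Nfkbia* and 106 bases before that of *Nfkbie*, whereas in *Bcl3* the match began at base 3 counted from the start. In the windows of *Rela* and *Nfkbib* these letters were not found. *Relb*, *Nfkb1* and *Nfkbiz* were not searched. A match describes the sequence and does not show that NF-κB binds there in these cells.

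With the brightest probe of each gene, 8 of the 10 genes were highest in CRL1505 + LPS and 9 were lowest in CRL1506 + LPS, although only 2 lay above LPS with CRL1505 under spike-in scaling. The exceptions at the top were *Relb* and *Nfkbie*, which were highest with LPS alone, and the exception at the bottom was *Nfkbib*, which was lowest with LPS alone. The log2 ratio against LPS had opposite signs for the 2 strains in 7 genes. Both of these comparisons use the same LPS array, so a deviation of that array would enter both. How many of all genes have this order of arrays or opposite signs was not counted. These counts can therefore not be called particular to the family.

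**Figure D1:**
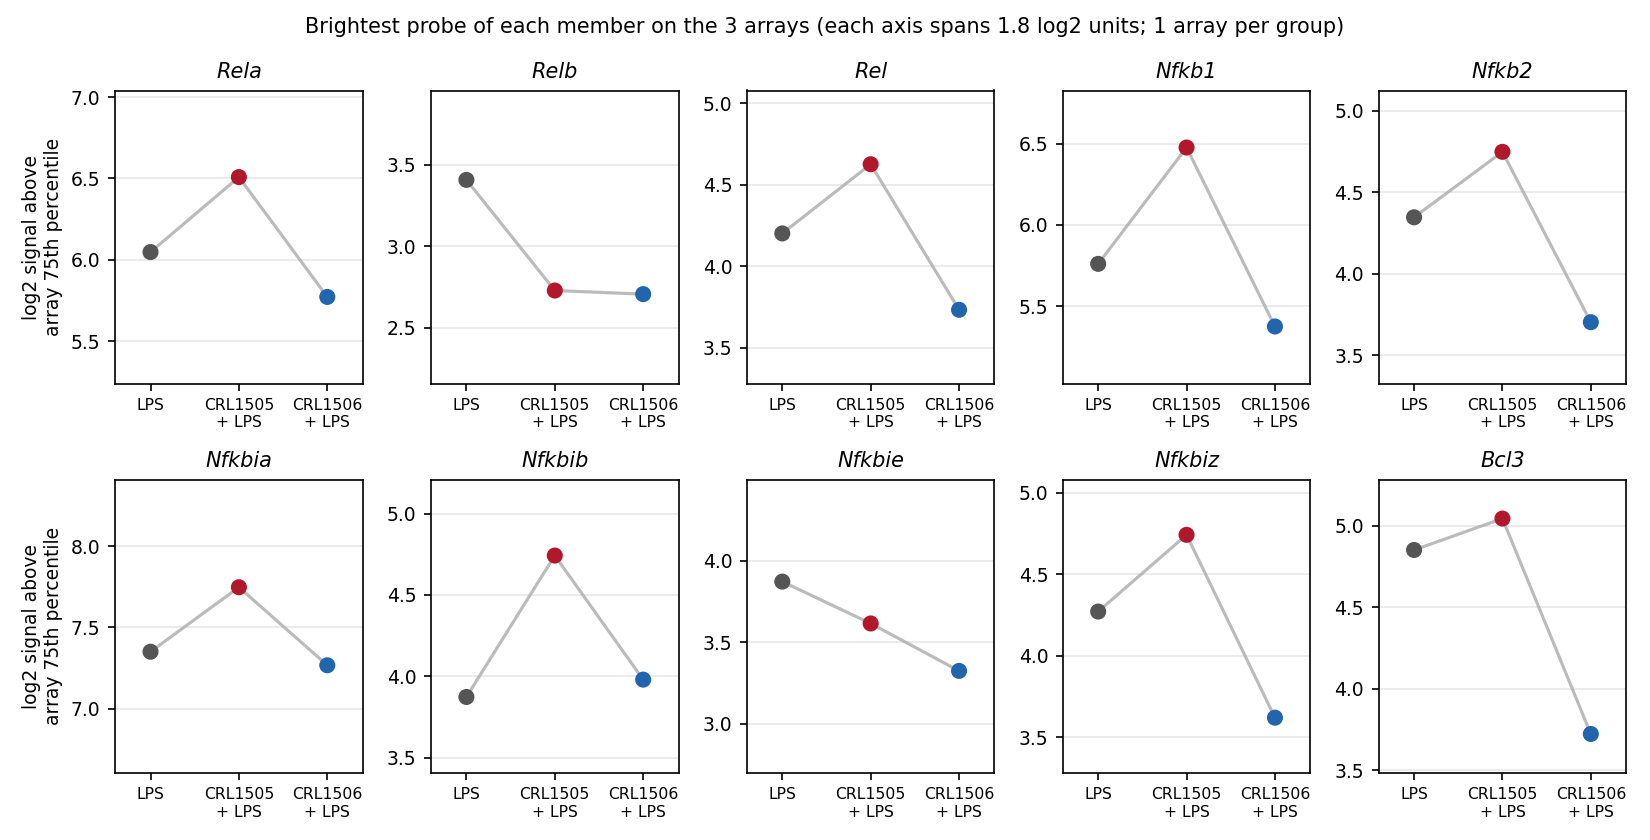
Level of each gene (log2 signal of its brightest probe above the 75th percentile of its array, vertical axis) on the LPS, CRL1505 + LPS and CRL1506 + LPS arrays, 1 point per array, joined by a line only to guide the eye. Each panel spans the same number of log2 units, and 8 of the 10 genes peak in CRL1505 + LPS while *Relb* and *Nfkbie* are highest in LPS. Under spike-in scaling only 2 genes lie above LPS with CRL1505. The share of all genes with such a peak was not counted.

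Among the subunits, *Rela* encodes p65, the strong activator of the classical NF-κB dimer. Its level was 6.05 in LPS, 6.51 in CRL1505 + LPS and 5.77 in CRL1506 + LPS. The log2 ratio against LPS was thus 0.46 with CRL1505 and -0.28 with CRL1506, and the second probe of the gene gave 0.30 and -0.24. The arrays therefore kept the same order on both probes. Under other normalizations the value for CRL1505 ran from -0.05 to 0.76 and that for CRL1506 from -0.48 to -0.11.

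*Nfkb1*, which encodes p105 and its product p50, the usual partner of p65, had a level of 5.76 in LPS, 6.48 in CRL1505 + LPS and 5.38 in CRL1506 + LPS. It gave the largest log2 ratio of a subunit with CRL1505 (0.71), kept above 0 under all 7 other normalizations (0.21 to 1.01), and a log2 ratio of -0.38 with CRL1506 (-0.58 to -0.23). Its 3 probes disagreed. The probe shown here, at chr3:135254550-135254609 on mm9, was read as coding from its reading frames and gave 0.40 with CRL1505 and -0.06 with CRL1506.
Nfkb1 probe, minus strand: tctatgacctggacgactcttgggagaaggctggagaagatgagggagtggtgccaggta
The third *Nfkb1* probe, which the array's annotation pairs with the transcript ENSMUST00000138602 and which has a stop codon in every forward reading frame, went the other way, with -0.36 for CRL1505 and 0.81 for CRL1506. The brightest probe of *Rel* and the only measured probe of *Bcl3* also have a stop codon in every forward reading frame. This trait therefore does not set the third *Nfkb1* probe apart. The local background of the brightest *Nfkb1* spot was flagged by the scanner software on the CRL1506 + LPS array. The part of this flag in the result was not tested beyond leaving the spot out, which puts the coding probe in its place.

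*Nfkb2* encodes p100, which acts as an inhibitor until it is cut to p52, the partner of RelB in the alternative pathway. Its level was 4.35 in LPS, 4.75 in CRL1505 + LPS and 3.70 in CRL1506 + LPS, corresponding to log2 ratios of 0.40 and -0.64. The second probe spans a splice junction in the coding sequence, over chr19:46386146-46386285 on mm9, and gave 0.16 and -0.47. Both probes placed the LPS array between the strains.
Nfkb2 probe, plus strand: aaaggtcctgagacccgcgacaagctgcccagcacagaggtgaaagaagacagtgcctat

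*Rel* encodes c-Rel, a subunit characteristic of blood cells. Its brightest probe had a level of 4.20 in LPS, 4.63 in CRL1505 + LPS and 3.73 in CRL1506 + LPS, giving log2 ratios of 0.43 and -0.47. The second *Rel* probe gave 0.07 and 0.04, both smaller than the spread between probes. The local background of the brightest *Rel* spot was flagged on the LPS and CRL1506 + LPS arrays, and without flagged spots the second probe is the value of the gene.

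*Relb*, the activating subunit of the alternative pathway, was lower on both strain arrays than on the LPS array. Its intensity before scaling was 7890.0 in LPS, 3427 in CRL1505 + LPS and 4556 in CRL1506 + LPS, and its level was 3.41, 2.73 and 2.71, respectively. The log2 ratios against LPS were -0.68 with CRL1505 and -0.70 with CRL1506, or 1.60-fold and 1.63-fold, and they differed from each other by 0.02. All 3 *Relb* probes were lower than LPS with both strains. The probe in the coding sequence at chr7:20191939-20191998 on mm9 gave -0.66 and -0.90, and the dimmest probe, whose local background was flagged on both strain arrays, gave -0.79 and -0.35.
Relb probe, minus strand: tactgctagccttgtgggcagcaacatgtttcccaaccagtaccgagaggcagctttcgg
The sign of *Relb* against LPS was kept under all 7 other normalizations, with -1.19 to -0.38 for CRL1505 and -0.90 to -0.61 for CRL1506. Taken relative to the median of the 10 genes, which cancels any shift between arrays, *Relb* had a difference of -1.09 with CRL1505 (-1.09 to -0.99 under the other normalizations) and of -0.19 with CRL1506.

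Among the cytoplasmic inhibitors, *Nfkbia* encodes IκBα, which NF-κB induces and which ends the nuclear phase of the response. Its only probe, whose sequence lies over a splice junction of the coding sequence at chr12:56590945-56591440 on mm9, had levels of 7.35 in LPS, 7.75 in CRL1505 + LPS and 7.27 in CRL1506 + LPS.
Nfkbia probe, minus strand: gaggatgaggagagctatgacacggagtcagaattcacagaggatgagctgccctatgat
The log2 ratio of *Nfkbia* was 0.40 with CRL1505 and -0.08 with CRL1506, the latter within the spread between probes. Under other normalizations these values ran from -0.11 to 0.69 and from -0.28 to 0.08, so that neither sign was kept throughout.

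*Nfkbib*, which encodes IκBβ, had a level of 3.87 in LPS, 4.74 in CRL1505 + LPS and 3.98 in CRL1506 + LPS. The log2 ratio of 0.87 with CRL1505 was the largest of the 10 genes in this comparison and stayed above 0 under all 7 other normalizations (0.36 to 1.16). With CRL1506 it was 0.11. The second *Nfkbib* probe, paired with another transcript of the gene, gave 0.74 and -0.27, so both probes were above LPS with CRL1505 and the value for CRL1506 had no settled sign.

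*Nfkbie*, which encodes IκBε, was measured by 1 probe, with a level of 3.87 in LPS, 3.61 in CRL1505 + LPS and 3.32 in CRL1506 + LPS. It was the other gene below LPS with both strains, by log2 ratios of -0.26 and -0.55. The first value was just past the spread between probes and reached 0.04 after a shift by the median, while the second kept its sign throughout (-0.75 to -0.45).

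By the brightest probes, the nuclear members had the largest log2 ratios between the strains, 1.32 for *Bcl3* and 1.12 for *Nfkbiz*, closely followed by the subunit *Nfkb1* (1.10). With the probes of each gene averaged, *Bcl3* stayed first, but *Nfkbib* (0.89) came before *Nfkbiz* and *Nfkb2* (0.84 each), and *Nfkb1* had 0.13. *Bcl3* encodes a nuclear protein that binds p50 and p52 dimers and can restrain or assist transcription. Its intensity before scaling was 21464 in LPS, 17070.4 in CRL1505 + LPS and 9209.9 in CRL1506 + LPS, and its level was 4.85, 5.05 and 3.72. It was 2.19-fold lower than LPS with CRL1506, a log2 ratio of -1.13, and this ratio was at most -1.01 under all 7 other normalizations (-1.33 to -1.01). With CRL1505 the log2 ratio was 0.19, within the spread between probes, and from -0.31 to 0.49 under the others. The value rests on 1 probe, since no array had the second *Bcl3* probe well above background.

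*Nfkbiz* encodes IκBζ, a nuclear protein that LPS induces and that secondary response genes such as *Il6* need. Its level was 4.27 in LPS, 4.74 in CRL1505 + LPS and 3.62 in CRL1506 + LPS, with log2 ratios of 0.47 and -0.65. The second measured *Nfkbiz* probe gave 0.10 and -0.46, in the same order, and the remaining probe was well above background on no array.

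**Figure D2:**
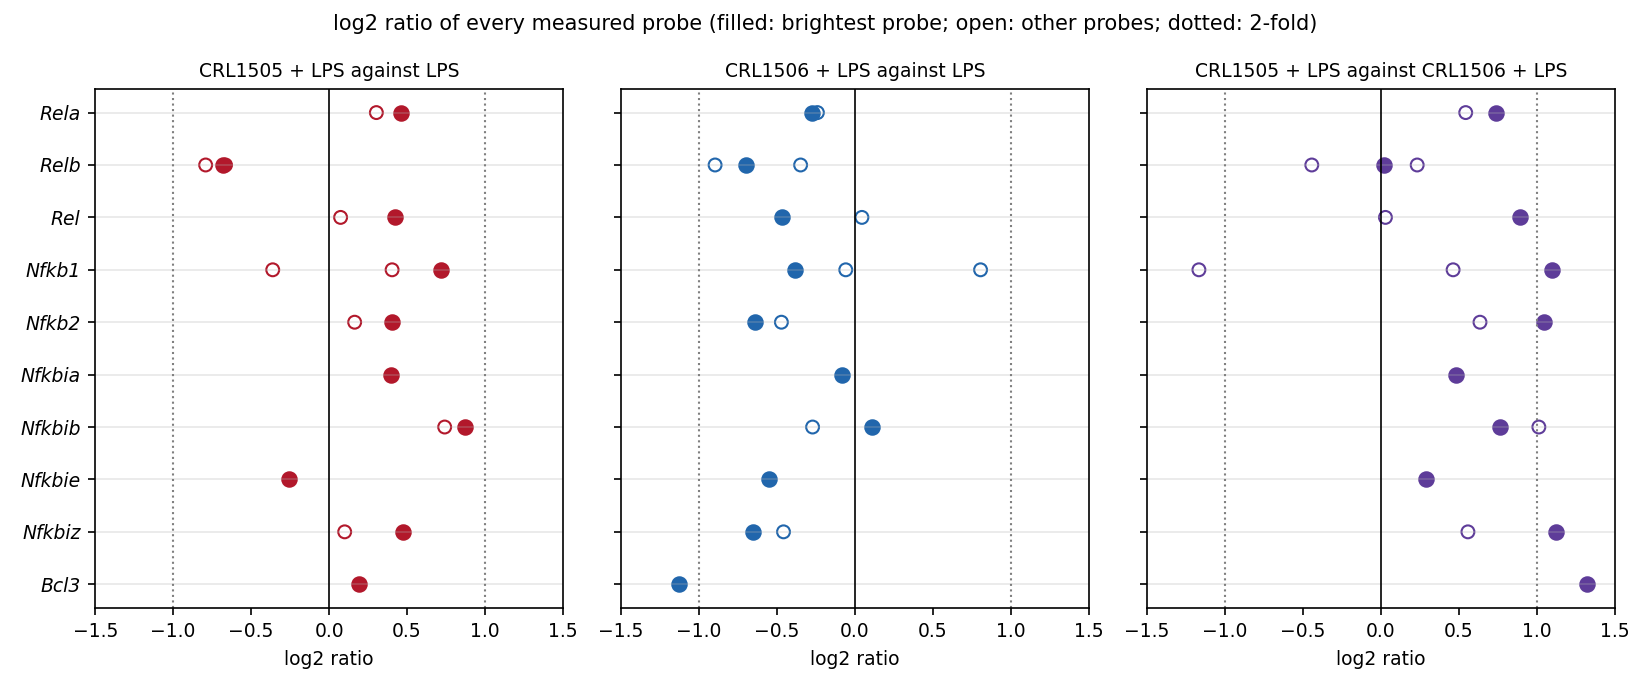
log2 ratio (horizontal axis) of every measured probe of the 10 genes in the 3 comparisons, with the brightest probe filled and other probes open; dotted lines mark 2-fold. All *Relb* probes lie left of 0 in both comparisons with LPS, the probes of *Nfkb1* lie on both sides, and *Bcl3*, *Nfkbia* and *Nfkbie* rest on 1 probe.

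Counted over the family, no gene was at least 2-fold higher or lower in CRL1505 + LPS than in LPS, whereas among the 15603 genes compared 9.93% passed this threshold upwards and 8.41% downwards. The median log2 ratio of the 10 genes was 0.41, beside 0.01 over all genes compared. Of the 10 genes, 8 lay above 0 and 2 below, but under spike-in scaling 2 lay above and 8 below. How many of all genes lay above 0 was not counted. Only *Nfkb1* and *Nfkbib*, above, and *Relb*, below, kept their sign under all 7 other normalizations. At 1.5-fold, 2 genes (*Nfkb1* and *Nfkbib*) were higher and 1 (*Relb*) was lower, with 19.1% and 17.2% of all genes past that threshold.

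In CRL1506 + LPS against LPS, 1 gene (*Bcl3*) was at least 2-fold lower and none higher, while 3.53% of the 16279 genes compared passed this threshold downwards and 5.67% upwards. The median over the 10 genes was -0.51, beside -0.06 over all genes. Here 9 of the 10 genes lay below 0, and 8 of them stayed below 0 under all 7 other normalizations, the exceptions being *Nfkbia* and *Nfkbib*. With the mean over probes 9 genes lay below 0 as well, but *Nfkb1* (0.12) was above 0 in place of *Nfkbib* (-0.08). Without spots whose local background was flagged, *Rel* had 0.04. The share of all genes below 0 was not counted. At 1.5-fold, 4 genes were lower (*Relb*, *Nfkb2*, *Nfkbiz* and *Bcl3*), with 9.23% of all genes past that threshold. This comparison lies within a slide.

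Between the strains, 4 of the 10 genes were at least 2-fold higher in CRL1505 + LPS than in CRL1506 + LPS and none was lower, while 9.02% of the 15780 genes compared passed the threshold upwards and 7.47% downwards. These were *Bcl3* (2.50-fold), *Nfkbiz* (2.18-fold), *Nfkb1* (2.14-fold) and *Nfkb2* (2.07-fold). The count depended on the scaling, with 7 genes after a shift by the median and none after spike-in scaling, and it was 1 (*Bcl3*) after quantile normalization, cyclic loess, scaling to the detected probes alone or with the deposited log2 values. It depended on the probe as well. With the mean over probes only *Bcl3* passed 2-fold, and without the spot whose local background was flagged *Nfkb1* had a log2 ratio of 0.46 in place of 1.10, and its probe on ENSMUST00000138602 had -1.17. The median log2 ratio was 0.83, beside 0.03 over all genes. The signs varied less, with 8 genes above 0 under the main and all 7 other normalizations, while *Relb* and *Nfkbie* changed sign. For this comparison too, the share of all genes above 0 was not counted. Strain and slide cannot be told apart here either.

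The 7 genes whose promoters were searched are given here by whether the NF-κB consensus was found. With CRL1505 the 5 genes with a match had log2 ratios from -0.26 (*Nfkbie*) to 0.43 (*Rel*), and *Rela* and *Nfkbib*, without one, had 0.46 and 0.87. With CRL1506 the range was -1.13 (*Bcl3*) to -0.08 (*Nfkbia*), beside -0.28 and 0.11. Between the strains it was 0.29 to 1.32, beside 0.74 and 0.76.

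**Figure D3:**
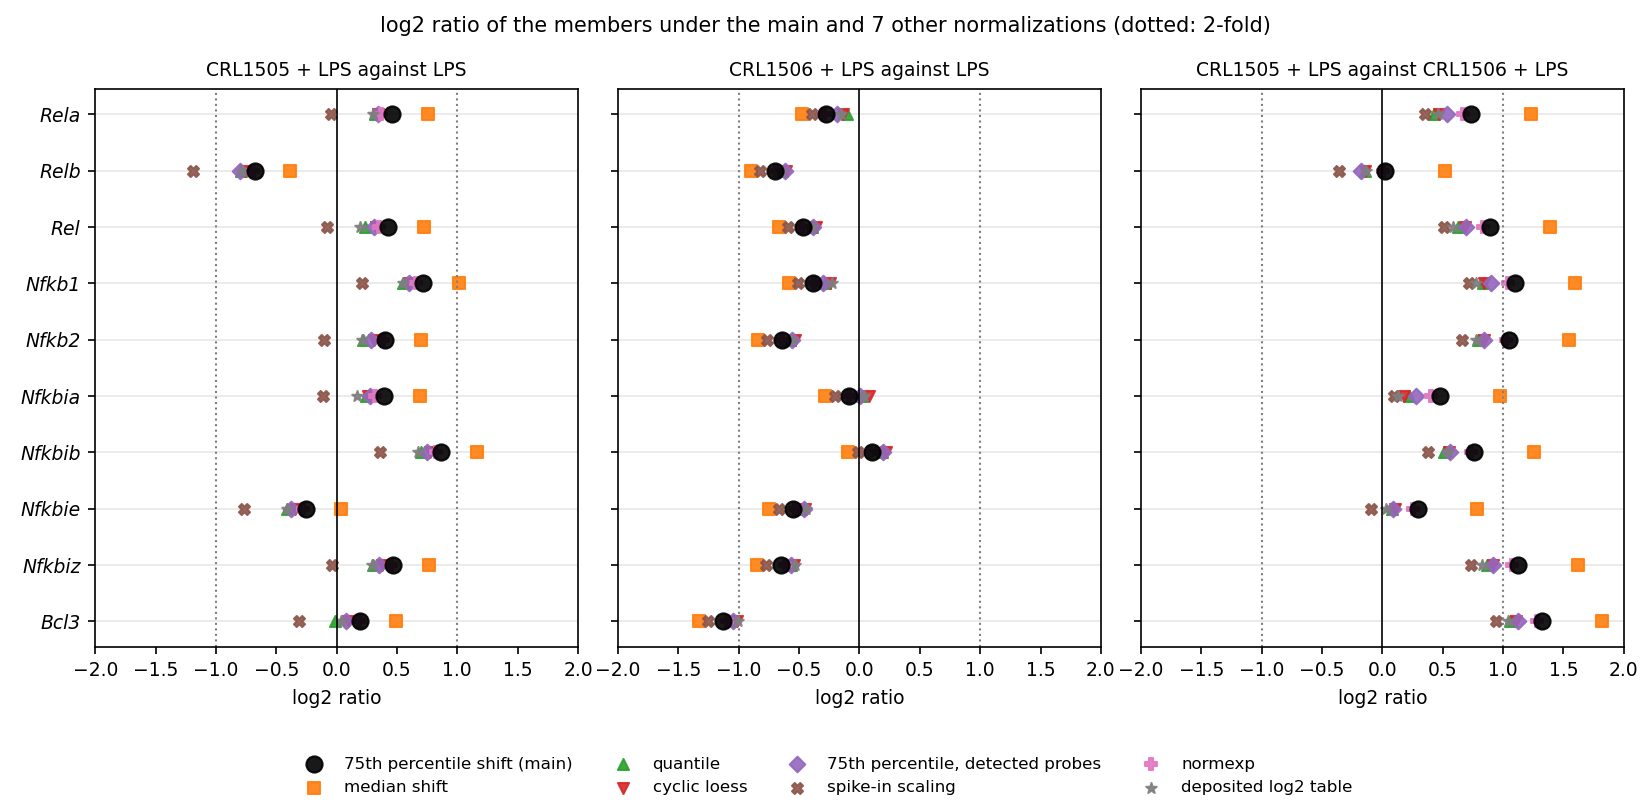
log2 ratio (horizontal axis) of each gene in the 3 comparisons under the 75th percentile shift (black circle) and 7 other normalizations (other symbols); dotted lines mark 2-fold. Spike-in scaling moves all genes left in the comparisons with CRL1505, where 6 genes that were above LPS fall below 0, whereas in CRL1506 + LPS against LPS 8 genes stay below 0 throughout and *Bcl3* stays past 2-fold.

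A shift between arrays moves every gene alike, so the values were also set against the median of all genes compared. With the median shift, this median was 0.33 for CRL1505 against LPS, -0.26 for CRL1506 against LPS and 0.57 for CRL1505 against CRL1506, and spike-in scaling put it at -0.48, -0.18 and -0.35, respectively. Relative to that median, 7 of the 10 genes were above and 2 below in every normalization with CRL1505, and with CRL1506 1 was above and 8 were below. Between the strains 9 were above and 1, *Relb*, was below. Over the 19 probes that were measured, 14 were above 0 with CRL1505, 3 with CRL1506 and 17 between the strains. These counts hold for the main scaling, and the probes of a gene are repeated readings of the same arrays. How many of all probes lay above 0 was not counted.

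The genes around the subunits and inhibitors were examined as 4 lists. Of the 9 kinases and adaptors upstream of the inhibitors, none was at least 2-fold different from LPS with either strain, although up to 2 were lower with CRL1505 under other normalizations. The IKK complex itself, made of the kinases *Chuk* and *Ikbkb* and the regulatory subunit *Ikbkg*, had log2 ratios of 0.35, 0.41 and 0.44 with CRL1505 and 0.02, 0.17 and 0.27 with CRL1506. Over the other normalizations the values for CRL1505 ran from -0.16 to 0.65, -0.10 to 0.70 and -0.07 to 0.73, so no sign was kept. With CRL1506 only *Ikbkg* kept its sign (0.07 to 0.36). *Map3k14*, the kinase NIK that starts the alternative pathway in which RelB acts, had -0.70 with CRL1505 and -0.56 with CRL1506. It was below LPS under all 7 other normalizations for both strains, at -1.20 to -0.40 and -0.76 to -0.47, while its list had a median of 0.08 and -0.15.

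Among the 9 other IκB-like and NF-κB binding proteins, 1 was at least 2-fold higher with CRL1505 and none with CRL1506. This was *Nkiras1*, a Ras-like protein that binds inhibitors of the IκB type, with log2 ratios of 1.15 and 0.91. Its value for CRL1505 ran from 0.65 to 1.45, so the 2-fold call was not kept throughout, and the list had 0 to 2 such genes. The list's median was 0.28 with CRL1505 and -0.08 with CRL1506, and the median for CRL1505 ran from -0.23 to 0.58 over the normalizations.

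Of the 17 genes of the ubiquitin machinery, 16 were measured and *Fam105b* was not on the array by that name. *Tnfaip3*, which encodes the ubiquitin-editing enzyme A20, an NF-κB target that shuts the pathway off, was the gene at least 2-fold higher with CRL1505 (1.11), and it had -0.29 with CRL1506. This value ran from 0.61 to 1.41 with CRL1505, and over the other normalizations the list had 0 to 2 genes higher and 0 to 2 lower. With CRL1506 no gene of this list passed 2-fold, and 15 of 16 lay below 0. The median of all genes compared also lay below 0 there (-0.06), and the share of all genes below 0 was not counted. The list's median was 0.10 with CRL1505 and -0.19 with CRL1506, and for CRL1505 it ran from -0.41 to 0.39 over the normalizations.

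The known targets of NF-κB covered a wider range than the subunits and inhibitors. Of 31 target genes, 27 were compared with LPS. The others were *Bcl2a1a*, which is not on the array by that name, *Vcam1* and *Ccl22*, which no array showed well above background, and *Csf2*, whose only probe had an outlier spot. With CRL1505, 12 were at least 2-fold higher and 2 lower, beside 9.93% and 8.41% of all genes, and with CRL1506 4 were higher and 4 lower, beside 5.67% and 3.53%. The counts ran from 7 to 14 higher and from 1 to 3 lower for CRL1505 over the other normalizations, and from 2 to 6 lower for CRL1506, with 4 higher in each.

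The cytokines *Il6* and *Csf3* were higher with both strains, with log2 ratios of 4.25 and 3.53 for CRL1505 and 2.35 for each of them with CRL1506. *Lcn2*, which encodes a protein that withholds iron from bacteria (3.92 and 1.64), and *Edn1* (2.58 and 1.69), which encodes endothelin, did the same. Higher by at least 2-fold with CRL1505 and not with CRL1506 were *Nos2*, the inducible nitric oxide synthase (3.40 and -0.70), *Il1a* (3.33 and -0.25), *Ptgs2*, the inducible cyclooxygenase (1.63 and -0.39), *Ccl5* (1.19 and 0.17) and *Traf1* (1.05 and 0.14). The acute-phase gene *Saa3* had 1.14 and -0.85. *Cd40*, a receptor for signals from T cells, was 2.82-fold higher with CRL1505 and 1.11-fold higher with CRL1506. With CRL1505, *Ccl5* (0.68 to 1.48), *Traf1* (0.54 to 1.35), *Saa3* (0.63 to 1.43) and *Cd40* (0.99 to 1.79) fell under 2-fold in at least 1 other normalization.

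*Il1b* passed 2-fold in opposite directions, its log2 ratio being 1.07 with CRL1505 and -1.04 with CRL1506, but neither call was kept in every normalization (0.56 to 1.36 and -1.24 to -0.90). *Cd83*, a surface marker of activated antigen-presenting cells, was lower with both strains, at -3.15 and -3.05, as was the chemokine gene *Cxcl1*, which was 3.47-fold lower with CRL1506 and not well above background with CRL1505, where it was at least 3.47-fold lower. Over the other normalizations *Cxcl1* ran from -2.14 to -0.86 with CRL1506, and its bound with CRL1505 from -2.30 to -0.76. Neither 2-fold call of *Cxcl1* was thus kept throughout, and the gene rests on 1 probe. *Icam1*, an adhesion molecule, had -0.10 with CRL1505 and was lower with CRL1506 (-1.03, and -1.23 to -0.88 over the normalizations). The median of the target list was 0.82 with CRL1505 and -0.25 with CRL1506, above 0 and below 0, respectively, under all 7 other normalizations.

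Between the strains, 13 of 28 target genes passed 2-fold upwards in CRL1505 + LPS and none downwards, beside 9.02% and 7.47% of all genes, and other normalizations gave 8 to 20 upwards and none downwards. The median of this list was 0.92 (0.54 to 1.43 over the other normalizations), beside 0.83 for the subunits and inhibitors and 0.03 over all genes compared. It was 0.23 for the upstream kinases and adaptors, 0.29 for the other IκB-like and NF-κB binding proteins and 0.17 for the ubiquitin machinery. Strain and slide cannot be told apart in these values.

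**Figure D4:**
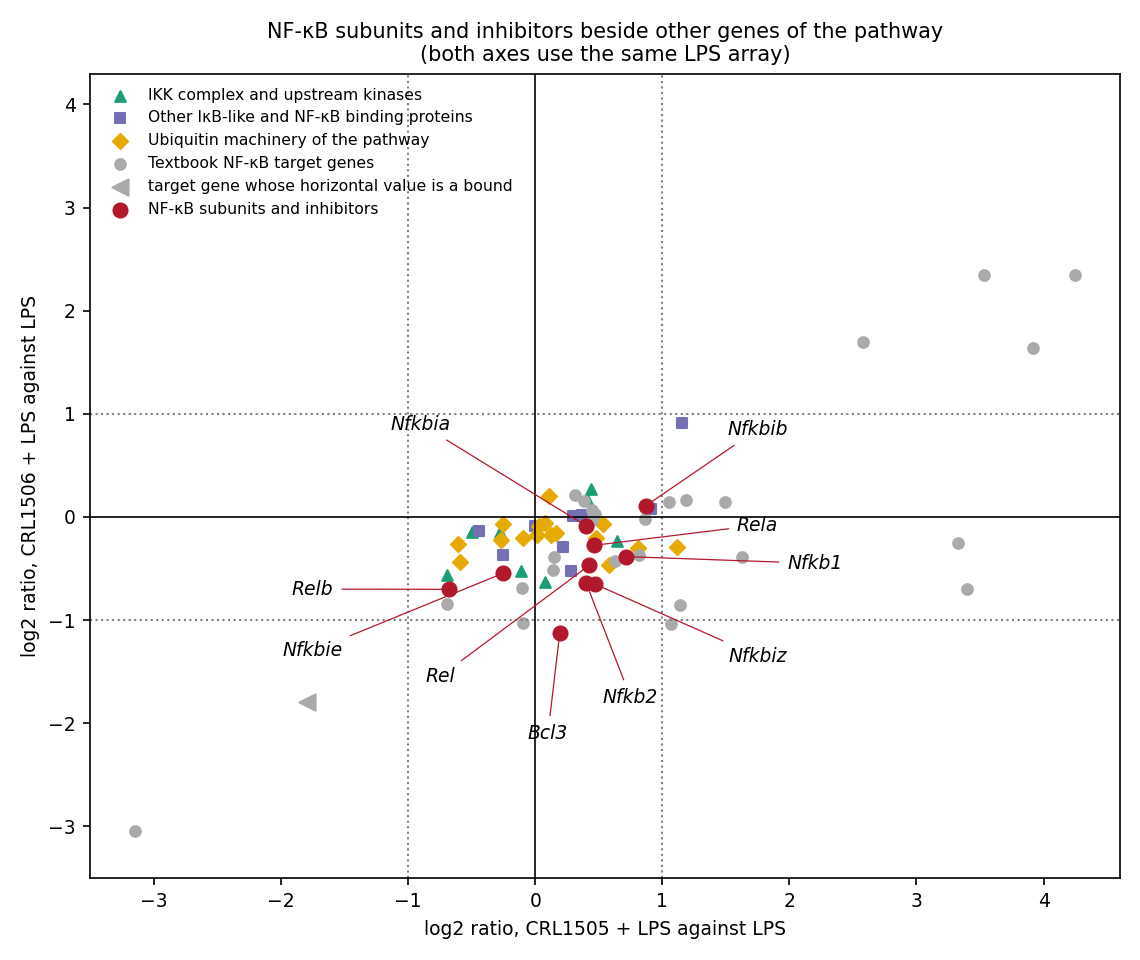
log2 ratio with CRL1505 (horizontal axis) and with CRL1506 (vertical axis) against the same LPS array, for the NF-κB subunits and inhibitors (red, named) and 4 lists of other pathway genes; dotted lines mark 2-fold. The red points lie between -0.68 and 0.87 horizontally and between -1.13 and 0.11 vertically, the target genes (grey) reach 4.25 and -3.15 horizontally, and the arrowhead is *Cxcl1*, whose horizontal value is a bound.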

How the data were processed

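RNA of RAW macrophages was measured on 3 SurePrint G3 Mouse GE arrays (1 colour, Cy3), 1 per group. The authors deposited each array's Feature Extraction output (version 12.0.3.1 in the files, another version in the paper), whose processed signal is a background-subtracted intensity that had not been normalized between arrays, and a table of log2 values normalized between arrays. Probes are placed on mm9, as in the file headers. No gene annotation of that build was at hand. Where a probe is said to lie in the coding sequence or over a splice junction, this was read from its reading frames and its span.

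Here the 75th percentile of each array's gene spots was subtracted from the log2 processed signals (an intensity of 743.1, 517.0 and 697.9 for LPS, CRL1505 + LPS and CRL1506 + LPS). Outlier spots were left out, repeated spots averaged, and each gene represented by its brightest probe. Genes well above background on neither compared array were left out, and a ratio with 1 side not well above background is a bound, computed from the lowest signal well above background on that array. A gene was called at 2-fold. The number of arrays limits the precision. For lack of replicates the paper's t-test was left out. Feature Extraction's own error on a log2 ratio was 0.20 for each gene of the family. Alternatives were the median shift, quantile normalization, cyclic loess, the 75th percentile of the probes detected on every array, spike-in scaling, normexp with an offset of 50, the deposited log2 table, the mean over probes, outlier spots kept, other filters on dim probes and thresholds of 1.5-fold and 4-fold. Leaving out spots with a flagged local background was chosen after seeing the data.

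The members and lists were chosen with earlier results of these data known. All 10 members are named, together with each gene of the further lists at least 2-fold from LPS with either strain and *Chuk*, *Ikbkb*, *Ikbkg* and *Map3k14* whatever their values. Promoter matches were found by symbol. Python 3.11.15, pandas 2.3.3, NumPy 2.4.6, R 4.3.3 and limma 3.58.1 were used. The steps were tested on simulated data with changes past 2-fold and noise between spots. Smaller changes and disagreement between the probes of a gene were not simulated.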

Additional observations from a re-analysis of the deposited data

Results flagged for a closer look

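Of the 10 NF-κB genes, 5 lay above LPS with CRL1505 and below LPS with CRL1506, in both cases by more than the median SD between probes of a gene, which flagged the difference between the strains. The share of all genes that meet this rule was not counted. Over genes well above background on both arrays, the upper quartile with CRL1505 was 0.41 and the lower quartile with CRL1506 was -0.27. Each lies past that SD as well. The log2 difference, CRL1505 + LPS minus CRL1506 + LPS, was 0.74 for *Rela*, 0.89 for *Rel*, 1.10 for *Nfkb1*, 1.05 for *Nfkb2* and 1.12 for *Nfkbiz*. The differences were not tested, since there was 1 array per group, and strain and slide cannot be told apart in them. Under spike-in scaling *Nfkb1* was the only one of these 5 genes still above LPS with CRL1505. The second probe of *Rel* differed by 0.03 between the strains and the third probe of *Nfkb1* by -1.17.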

How the results depend on the processing

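No value of the 10 genes past 2-fold changed its sign, but the median for CRL1505 + LPS against LPS did, and counts near 2-fold depended on the scaling and on the probe used. For CRL1505 + LPS against LPS, the median shift gave 2 genes higher and a median log2 ratio of 0.71, spike-in scaling gave 1 gene lower and turned the median from 0.41 to -0.093, and a threshold of 1.5-fold gave 2 genes higher and 1 lower. For CRL1506 + LPS against LPS, 1.5-fold gave 4 genes lower and 4-fold gave 0. For CRL1505 + LPS against CRL1506 + LPS, where 4 genes were higher, the median shift gave 7 and a median of 1.32, spike-in scaling gave 0 and a median of 0.44, and 1.5-fold gave 7 and 4-fold 0. There, quantile normalization, cyclic loess, the 75th percentile over detected probes, the deposited log2 table and the mean over probes each gave 1. The cause was not tested. The other 101 of 120 counts and medians stayed within 1.5 times or within the SD between probes, and so did 246 of 300 values of single genes. Without spots whose local background was flagged, *Nfkb1* had 0.40, -0.06 and 0.46 and *Rel* 0.07, 0.04 and 0.03 in the 3 comparisons. No paired analysis was possible because each group has 1 array. Signal over background did not limit the brightest probes, since all 10 genes were well above background on every array.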
